A study of Homo sapiens with 6 samples.

Results

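The genes described here are 60 interferon-stimulated and innate sensing genes, taken by name from a table of 58735 genes measured in Raji cells with and without bryostatin-1. Of the 60 names, 59 stood in the table as written, and MB21D1 was found under its current symbol CGAS. Raji is a B-cell line from a Burkitt lymphoma that carries Epstein-Barr virus, and the cells of all 6 libraries also carried a GFP-ffluc reporter. The 3 control libraries came from cells given DMSO, the solvent. The other 3 came from cells given 1 nM bryostatin-1, a natural product that activates protein kinase C, in each case overnight at 37 °C.

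Interferons are secreted when a cell detects foreign or misplaced nucleic acid. Sensors such as the Toll-like receptors of endosomes, the cytoplasmic RNA helicases RIG-I and MDA5 and the DNA sensor cGAS signal through adaptors to IRF transcription factors, which switch on the interferon genes. Secreted interferon then acts through its receptors, the kinases JAK1 and TYK2 and a complex containing STAT2 and IRF9 that binds a DNA element called ISRE and induces genes whose products block viral replication. B cells take part both as targets of interferon and through their own Toll-like receptors.

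Depth ran from 19405370 to 24468270 reads on genes per library, recovered from the deposited FPKM values (fragments scaled to gene length and library depth). All 7 B-cell markers were abundant, with summed levels of 3219, 3591 and 2874 FPKM in DMSO replicates 1 to 3 and 3185, 2462 and 3017 FPKM under bryostatin. Marker lists of T cells, monocytes, NK cells, plasmacytoid dendritic cells and epithelium or fibroblasts were each low, the highest sum of any 1 list in any library being 4.61 FPKM for NK cells, most of it from NKG7. CD163, TRAT1, KLRD1, NCAM1, CLEC4C, GZMB, EPCAM and COL1A2 had no read at all. The 11071 genes whose average over all libraries reached 1 FPKM were compared on the log2(FPKM + 1) scale with limma, a linear model with moderated variances. The count passing an adjusted p of 0.05 was 0, and 1954 genes had an unadjusted p under 0.05. Without DMSO replicate 3, 267 genes passed. Separate cultures are not mentioned in the labels, and the p-values therefore reflect the spread among these libraries alone, which may be technical. Means are given with their SD and n = 3 libraries per group, and differences on the log2(FPKM + 1) scale understate those of weakly expressed genes.

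The genes of the set ranged from no read at all to more than 100 FPKM, and the share expressed was close to that of all protein-coding genes. Of the 60 genes, 28 (46.7%) averaged 1 FPKM or more, against 46.4% of protein-coding genes. Another 10 lay between 0.1 and 1 FPKM. The remaining 22 (36.7%) lay under 0.1 FPKM, against 43.6% of protein-coding genes. MX1, a GTPase that traps incoming viral nucleoproteins, and HERC5, the ligase that attaches ISG15 to new proteins, had no read in any library. A count of 0 still allows up to 3 reads, which for these genes was at most 0.0184 and 0.0332 FPKM per library, counting error only. The most abundant gene was BST2, which encodes tetherin, an anchor that holds budding virus on the cell surface. It was at 117.3 ± 4.45 FPKM in DMSO and 116.6 ± 9.02 under bryostatin, rank 248 among protein-coding genes.

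The ISRE letters were present in front of genes of both kinds. The ISRE core was searched as the letters GAAA repeated after a gap of any 2 bases, on either strand. The search covered the 250 bases before each listed RefSeq start (build GRCh38.p14) of the 44 genes with an entry. It was found before 23 of the 44, where 3.02% of all 35116 promoters held it. These shares are of unlike units. A gene counted if any of its listed starts had a match, and some had several, up to 4 for IRF5. The 3.02% is a share of single starts. The core stood before 8 of 21 genes at or above 1 FPKM and before 15 of 23 genes below that level. The following sites are shown because they carry the same letters in front of genes at opposite ends of the range of levels. Each is printed 5′ to 3′ on the gene's strand with the matched letters in capitals. First come BST2, ISG15 and ISG20, which were expressed in every library, then MX1, RSAD2 and IFIT1, which were at or near 0.
BST2: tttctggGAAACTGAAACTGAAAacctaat
ISG15: gcctcggGAAAGGGAAACCGAAActgaagc
ISG20: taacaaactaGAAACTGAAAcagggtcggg
MX1: ggtcactctgTTTCTCTTTCcgtgaataaa
RSAD2: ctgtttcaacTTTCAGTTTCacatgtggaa
IFIT1: tagTTTCACTTTCcccTTTCGGTTTCcct

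The BST2 site is at chr19:17405738-17405767 (minus strand), inside annotated exons of the neighbouring genes BISPR and MVB12A, and holds 2 overlapping matches ending 114 bases before the start. The ISG15 site is at chr1:1013377-1013406 (plus strand), in an intron of a longer annotated ISG15 transcript, with 2 overlapping matches ending 97 bases before the start. The ISG20 site at chr15:88638937-88638966 and the MX1 site at chr21:41431844-41431873 lie in annotated exons of the same genes. The RSAD2 site at chr2:6877622-6877651 lies in an intron of RSAD2, and the IFIT1 site at chr10:89392504-89392532, with 2 matches, in an intron of LIPA (all plus strand). MX1 has 3 listed starts and RSAD2 has 2, and the site shown for each is from a start with a match. For MX1 that start lies inside the gene, whose annotation begins at position 41420304.

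Longer windows are shown for HERC5 and IFI6, which hold 3 matches each and lie outside exons. HERC5 had no read, whereas IFI6 averaged 2.17 FPKM over the 6 libraries. The HERC5 window is chr4:88456964-88457084 (plus strand), between annotated genes. The IFI6 window is chr1:27672246-27672378 (minus strand), in an intron of the transcript AL445490.1.
HERC5: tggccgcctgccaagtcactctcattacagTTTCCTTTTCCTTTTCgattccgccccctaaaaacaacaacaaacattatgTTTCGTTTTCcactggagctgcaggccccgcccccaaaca
IFI6: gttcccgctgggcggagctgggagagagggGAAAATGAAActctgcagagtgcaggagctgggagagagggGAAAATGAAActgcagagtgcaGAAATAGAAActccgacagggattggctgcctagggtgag
The letters TTCNNNGAA of a second interferon-linked element, GAS, were found before 11 of the 44 genes, against 6.57% of all promoters. Here too a gene counted through any of its starts, and the promoters were counted singly. A match describes letters, and no factor's binding was measured here. A missing match does not show that an element is absent, since only these exact letters in the 250 bases were searched.

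**Figure D1:**
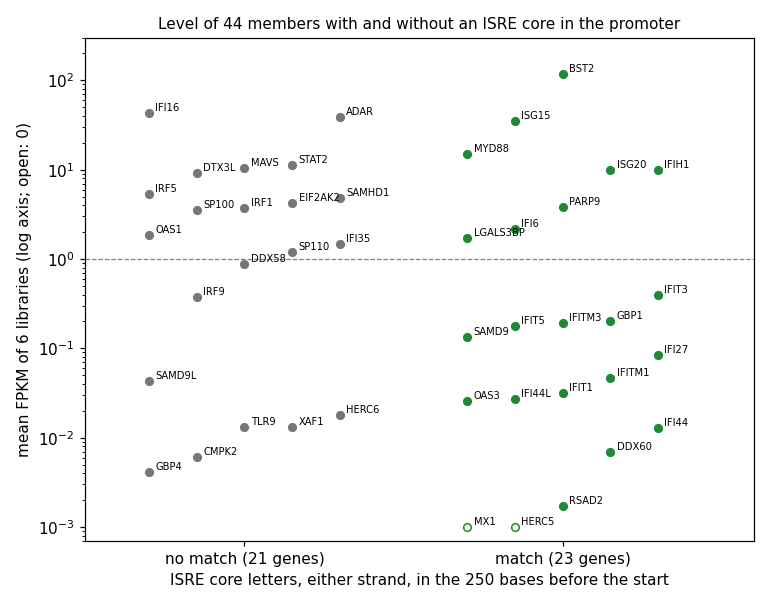
Mean FPKM of 6 libraries on a log axis for the 44 genes with a RefSeq promoter entry. Genes are split by whether the 250 bases before any listed start hold the exact letters of the ISRE core, and an element may lie elsewhere. The column with a match runs from BST2 at 116.9 FPKM down to MX1 and HERC5, drawn as open symbols because they are at 0.

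With bryostatin, 0 of the 28 genes compared passed an adjusted p of 0.05, as did 0.0% of all genes, and the smallest adjusted p among them was 0.227 (limma). At an unadjusted p under 0.05 there were 3 of 28 (10.7%), fewer than the 17.6% of all genes tested. One of them, IRF3, was higher under bryostatin, where 10.5% of all genes were, and IFIH1 and MAVS were lower, where 7.18% of all genes were. The groups did not overlap for 2 of 28 genes (7.14%), MAVS and SAMHD1, both lower, while 23.6% of all genes did not overlap and 10.7% did so with lower levels. The median log2 change of the 28 genes was -0.06, beside 0.02 over all genes tested. Log2 changes were negative for 19 (67.9%) and positive for 9 of the genes, where 46.1% of all genes were negative. TPM scaling made that 22 and 6, and leaving out bryostatin replicate 2 made it 15 and 13. The median over all genes tested was -0.026 with TPM scaling and 0.025 without that library. For 25 of the 28 genes the 95% interval excluded a 2-fold difference of FPKM + 1 in either direction. IRF3, OAS1 and ISG20 were the others. For 20 genes the interval excluded 1.5-fold on that scale. Near 1 FPKM such an interval can still allow a larger fold of FPKM itself. Over all genes tested 93.0% of intervals excluded 2-fold. In bulk RNA, fewer cells expressing a gene and less RNA per cell cannot be told apart.

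**Figure D2:**
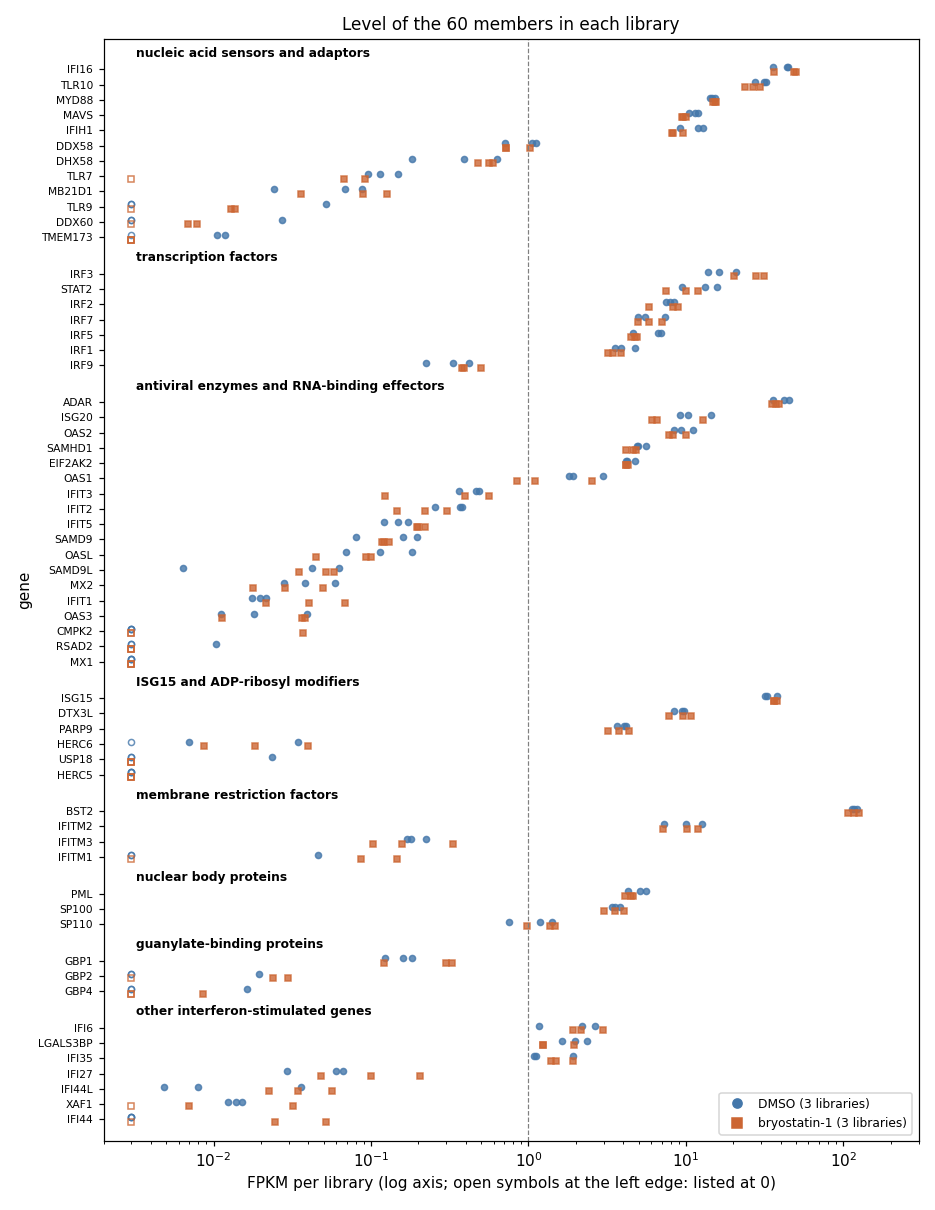
FPKM of each of the 60 genes in every library on a log axis, grouped by role, with DMSO libraries as blue circles and bryostatin libraries as orange squares. Open symbols at the left edge are values of 0, and the dashed line marks the 1 FPKM needed for testing. For most genes the symbols of both colours cover the same stretch.

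**Figure D3:**
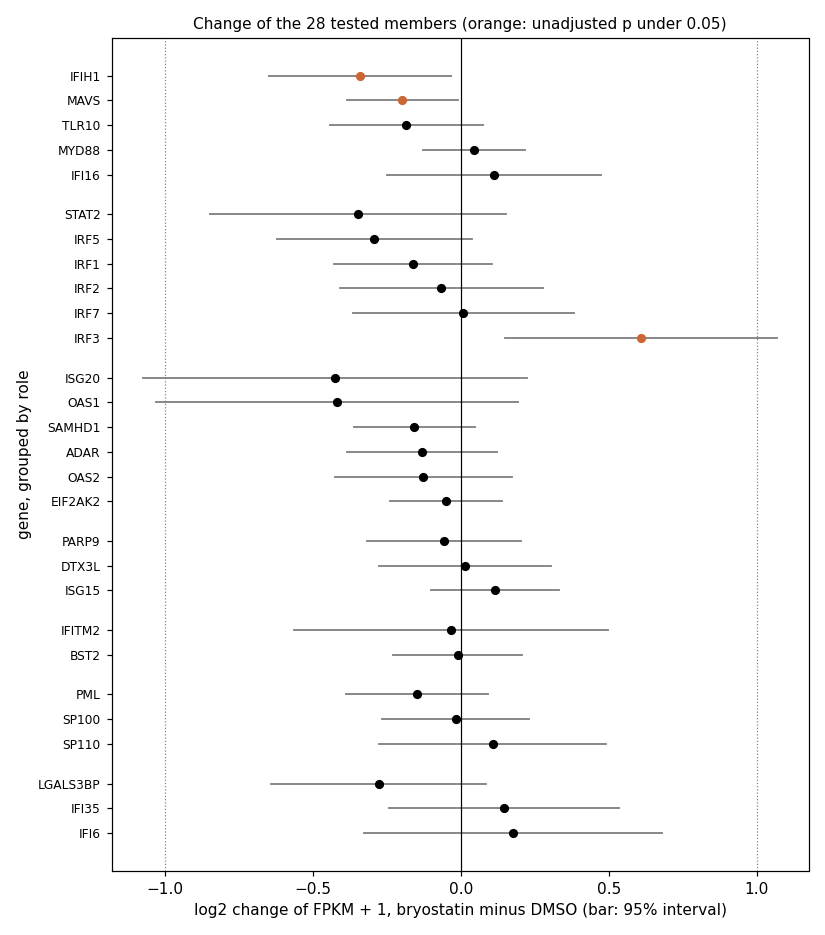
Log2 change of FPKM + 1, bryostatin minus DMSO, for the 28 genes tested, with 95% intervals from limma and dotted lines at 2-fold. The 3 orange points, IFIH1, MAVS and IRF3, had an unadjusted p under 0.05, and 0 genes passed after adjustment.

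Among the 12 sensors and adaptors, 5 were expressed at 1 FPKM or more, and the endosomal receptors TLR7 and TLR9 were not among them. TLR7, the receptor for single-stranded RNA, had 58 reads over all libraries (mean 0.0860 FPKM). TLR9, the receptor for unmethylated CpG DNA that B cells are known to use, had 6 reads in all. That value cannot be read as absence of the transcript, since 86.3% of the exonic bases of TLR9 are shared with the annotated gene AC097637.1, which was listed at 0 in every library. Reads on such bases belong to either gene, and how they were assigned is not given in the sources used here.

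Of the Toll-like receptors in the set, TLR10, an orphan receptor of B cells, had a high level. It was at 32.1, 31.4 and 27.3 FPKM in DMSO replicates 1 to 3 and at 26.7, 23.7 and 29.3 FPKM in bryostatin replicates 1 to 3. DMSO replicate 3 lay inside the bryostatin range, and the log2 change was -0.18 ± 0.11 (SE; adjusted p = 0.405). TLR10 shares no exonic base with another annotated gene. MYD88, the adaptor that all these receptors use, was at 14.7 ± 0.492 FPKM in DMSO and 15.1 ± 0.352 under bryostatin, and its highest library exceeded its lowest 1.08-fold.

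Of the cytoplasmic RNA helicases, MDA5, encoded by IFIH1 and specific for long double-stranded RNA, was the one that averaged above 1 FPKM. RIG-I lay close below that level, from 0.713 FPKM in DMSO replicate 2 to 1.11 in DMSO replicate 1. IFIH1 (chromosome 2) stood at 12.0, 9.22 and 12.8 FPKM in DMSO and at 8.18, 9.64 and 8.24 FPKM under bryostatin. Bryostatin replicate 2 lay above DMSO replicate 2, so the groups overlapped, and the log2 change was -0.34 ± 0.13 (SE; 1.27-fold, adjusted p = 0.255). RIG-I (DDX58) had 497 reads and 0.959 ± 0.215 FPKM in DMSO against 0.820 ± 0.175 under bryostatin. LGP2 (DHX58), a regulator of both helicases, was at 0.401 ± 0.224 and 0.545 ± 0.0569 FPKM, and DDX60, a helicase said to assist them, had 6 reads.

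MAVS, the mitochondrial adaptor through which RIG-I and MDA5 signal, had its 3 lowest values in the bryostatin libraries. Its levels were 11.9, 11.5 and 10.4 FPKM in DMSO and 9.59, 9.98 and 9.48 FPKM under bryostatin. The difference was small, -0.20 ± 0.08 on the log2 scale (SE; 1.15-fold, adjusted p = 0.268), and its interval ran from -0.38 to -0.01.

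Of the DNA-sensing genes in the set other than TLR9, whose level is uncertain as said above, IFI16 was expressed and the others were near 0. The sensor cGAS (MB21D1) had 38 reads in total, 0.0601 ± 0.0327 FPKM in DMSO and 0.0841 ± 0.0456 under bryostatin. Its adaptor STING (TMEM173) had 2 reads, both in DMSO libraries, and it shares no exonic base with another gene. IFI16, a nuclear DNA-binding protein, was the second most abundant gene of the set, with 35.5, 43.7 and 44.5 FPKM in DMSO and 48.9, 36.0 and 49.7 FPKM under bryostatin. Bryostatin replicate 2 lay among the DMSO libraries, and the log2 change was 0.11 ± 0.15 (SE; adjusted p = 0.721). AIM2, a cytosolic DNA sensor of the wider pathway list that forms inflammasomes, was also expressed, at 22.2, 27.3 and 19.2 FPKM in DMSO and 37.7, 21.1 and 34.9 FPKM under bryostatin (adjusted p = 0.381). Its groups overlapped through bryostatin replicate 2.

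Of the 7 transcription factors 6 were expressed at 1 FPKM or more. IRF3, the factor that the sensors activate first, had the largest difference of the set. It was at 13.8, 20.8 and 16.2 FPKM in DMSO and at 31.1, 20.3 and 27.8 FPKM under bryostatin. DMSO replicate 2 and bryostatin replicate 2 met at about the same level, and the other libraries were apart. The log2 change was 0.61 ± 0.19 (SE; 1.53-fold, adjusted p = 0.227), with an interval from 0.15 to 1.07. IRF3 (ENSG00000126456, chromosome 19) shares 19.3% of its exonic bases with BCL2L12 on the opposite strand. BCL2L12 stood at 12.0, 23.7 and 20.7 FPKM in DMSO and 46.1, 22.6 and 34.5 FPKM under bryostatin, with a log2 change of 0.83 (adjusted p = 0.247). Without a stated strand setting the reads on shared bases cannot be told apart, and the part of BCL2L12 in the IRF3 value was not tested.

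STAT2, a subunit of the interferon-activated complex that binds ISRE, was spread widely within both groups. It was at 15.7, 13.2 and 9.44 FPKM in DMSO and at 7.44, 11.9 and 10.0 FPKM under bryostatin, a log2 change of -0.35 ± 0.21 (SE; adjusted p = 0.411). DMSO replicate 3 lay below bryostatin replicates 2 and 3. IRF5, a factor of Toll-like receptor signalling, showed the same division: DMSO replicates 1 and 2 were at 6.67 and 6.90 FPKM, DMSO replicate 3 at 4.59, and bryostatin at 4.48, 4.88 and 4.71. The adjusted p of IRF5 was 0.319, and without DMSO replicate 3 it was 0.0489 (limma), the one gene of the set that passed in any fit. That fit leaves out the DMSO library that lay inside the bryostatin range. In it 25.8% of all genes had an unadjusted p under 0.05, against 17.6% with all 6 libraries. More genes of the whole table passed there than with any other library left out.

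IRF7, which amplifies the interferon response, was at 5.92 ± 1.25 FPKM in DMSO and 5.94 ± 1.03 under bryostatin. IRF1, an activator induced by interferon gamma, was at 4.05 ± 0.601 and 3.50 ± 0.348 FPKM, and IRF2, its antagonist, at 7.94 ± 0.510 and 7.64 ± 1.62. IRF9, the DNA-binding subunit of the same complex as STAT2, was at 0.325 ± 0.0988 and 0.423 ± 0.0676 FPKM, below the level for testing. Of the exonic bases of IRF9, 48.4% are shared with the annotated gene AL136295.5 on the same strand, so its level is uncertain.

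Of the 18 antiviral enzymes and RNA-binding effectors, 12 were under 1 FPKM and 7 (38.9%) under 0.1, beside 43.6% of protein-coding genes. The 6 tested members had negative log2 changes, as did 46.1% of all genes, from -0.42 for ISG20 to -0.05 for EIF2AK2, and none passed (smallest adjusted p = 0.374). ADAR, which edits adenosine to inosine in double-stranded RNA, was the most abundant at 42.0, 35.6 and 45.0 FPKM in DMSO and 37.2, 38.9 and 35.3 FPKM under bryostatin. DMSO replicate 2 lay within the bryostatin range, and the adjusted p was 0.533. EIF2AK2, the kinase PKR that halts translation on double-stranded RNA, was at 4.38 ± 0.331 and 4.19 ± 0.0924 FPKM.

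ISG20, an RNA exonuclease, was at 14.5, 9.19 and 10.4 FPKM in DMSO and 6.10, 12.8 and 6.55 FPKM under bryostatin. Bryostatin replicates 1 and 3 were low while replicate 2 stood above DMSO replicates 2 and 3, and the log2 change was -0.42 ± 0.28 (SE; adjusted p = 0.432). OAS1, which makes 2′-5′ oligoadenylate, repeated that order at 2.23 ± 0.639 and 1.48 ± 0.902 FPKM. OAS2, of the same family, was at 9.60 ± 1.36 and 8.70 ± 1.15 FPKM. The other members of the family, OAS3 with 27 reads and OASL with 45, were near 0.

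SAMHD1, which depletes nucleotides needed for reverse transcription, was the other gene whose groups did not overlap. It was at 4.99, 4.88 and 5.55 FPKM in DMSO and 4.80, 4.59 and 4.14 FPKM under bryostatin. The gap between the nearest libraries, DMSO replicate 2 and bryostatin replicate 1, was small, and the log2 change was -0.16 ± 0.09 (SE; adjusted p = 0.374).

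The IFIT genes, whose products bind viral RNA ends and which respond strongly to interferon, were all under 1 FPKM. IFIT3 and IFIT2 were the highest, at 0.435 ± 0.0664 and 0.332 ± 0.0664 FPKM in DMSO and 0.360 ± 0.221 and 0.223 ± 0.0790 under bryostatin. IFIT5 was at 0.147 ± 0.0247 and 0.205 ± 0.0123 FPKM on 89 reads, and IFIT1 had 18 reads. RSAD2 (viperin) had 1 read and its genomic neighbour CMPK2, a mitochondrial nucleotide kinase, 3 reads. MX2 had 62 reads over its long gene model, or 0.0369 FPKM. SAMD9 and SAMD9L, translation inhibitors, were at 0.134 and 0.0427 FPKM over all libraries.

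Of the ISG15 system, the modifier and the enzymes UBA7 and UBE2L6 were expressed, while HERC5, HERC6 and USP18 were at or near 0. ISG15, a ubiquitin-like protein, was at 37.7, 32.8 and 31.8 FPKM in DMSO and 38.0, 36.3 and 36.4 FPKM under bryostatin. DMSO replicate 1 lay within the bryostatin range, and the log2 change was 0.11 ± 0.09 (SE; adjusted p = 0.521). HERC5 had no read, its relative HERC6 had 13 and USP18, the protease that removes ISG15 and also damps interferon receptor signalling, had 1. USP18 has a close genomic copy, USP41, so its reads may be divided. Upstream of HERC5, the activating enzyme UBA7 was at 1.23 ± 0.353 FPKM in DMSO and 1.17 ± 0.110 under bryostatin, and the conjugating enzyme UBE2L6 at 23.9 ± 3.09 and 22.5 ± 2.44. The pair PARP9 and DTX3L, an ADP-ribosyltransferase and its ubiquitin ligase partner that share a promoter region, was expressed in every library. DTX3L was at 8.34, 9.71 and 9.49 FPKM in DMSO and 10.7, 7.75 and 9.52 FPKM under bryostatin, a log2 change of 0.01 ± 0.12 (SE; adjusted p = 0.968). That value was of either sign depending on the scaling. PARP9 was at 3.95 ± 0.278 and 3.78 ± 0.580 FPKM.

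Of the membrane restriction factors, BST2 and IFITM2 were expressed and IFITM1 and IFITM3 were near 0. BST2 was at 122.1, 116.3 and 113.4 FPKM in DMSO and 125.6, 116.8 and 107.5 FPKM under bryostatin. The groups overlapped fully, and the log2 change of -0.01 had an interval from -0.23 to 0.21, which leaves out any difference above 1.17-fold. IFITM2, which blocks fusion of virus in endosomes, was at 10.1, 12.7 and 7.25 FPKM in DMSO and 11.9, 7.19 and 10.1 FPKM under bryostatin (adjusted p = 0.955). IFITM3 had 33 reads and IFITM1 6. The IFITM genes are near-identical paralogs, and IFITM1 shares 32.5% of its annotated exonic bases with IFITM2, so the division of reads among them is uncertain.

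The nuclear body genes were all 3 above 1 FPKM. PML, the scaffold of these bodies, was at 5.13, 4.31 and 5.58 FPKM in DMSO and 4.61, 4.13 and 4.49 FPKM under bryostatin (adjusted p = 0.463). SP100, another body component that represses incoming viral genomes, was at 3.38, 3.81 and 3.53 FPKM in DMSO and 4.03, 3.02 and 3.54 FPKM under bryostatin (adjusted p = 0.946). SP110 was at 1.12 ± 0.339 and 1.27 ± 0.263 FPKM. In all 3 genes the libraries of both groups overlapped.

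None of the 3 guanylate-binding proteins, GTPases induced above all by interferon gamma, reached 1 FPKM. GBP1 was at 0.122, 0.183 and 0.160 FPKM in DMSO and 0.327, 0.120 and 0.297 FPKM under bryostatin, on 126 reads in all. Bryostatin replicates 1 and 3 were the highest and replicate 2 the lowest. GBP2 was at 0.0194, 0 and 0 FPKM in DMSO and 0, 0.0239 and 0.0295 FPKM under bryostatin, and GBP4 had 3 reads.

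In the last group, IFI6, a small mitochondrial or reticular protein, was at 1.17, 2.64 and 2.19 FPKM in DMSO and 2.99, 1.91 and 2.14 FPKM under bryostatin (adjusted p = 0.683). It rested on 235 reads. LGALS3BP, a secreted glycoprotein, was at 2.37, 1.63 and 1.98 FPKM in DMSO and 1.24, 1.95 and 1.24 FPKM under bryostatin. Bryostatin replicates 1 and 3 lay below all other libraries, and the log2 change was -0.28 ± 0.15 (SE; adjusted p = 0.375). IFI35 was at 1.37 ± 0.473 and 1.61 ± 0.280 FPKM. The remaining genes, IFI27, IFI44L, XAF1 and IFI44, had 43, 34, 11 and 3 reads. XAF1 shares 38.3% of its exonic bases with a transcript on the opposite strand.

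**Figure D4:**
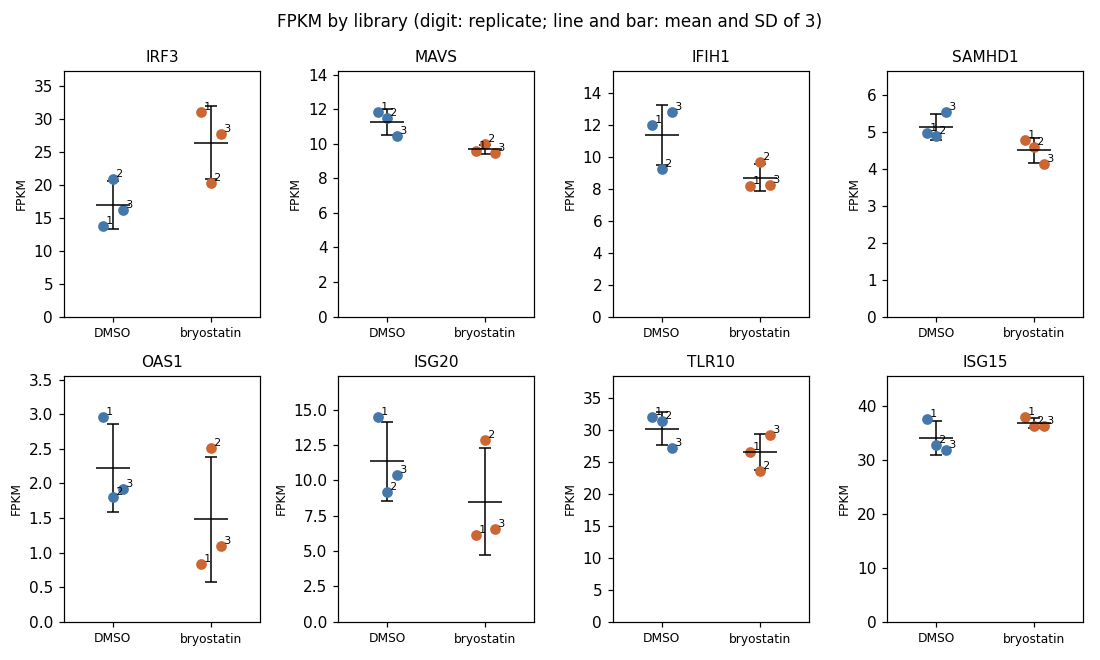
FPKM by library for 8 genes, with the replicate number beside each point and the mean and SD of 3 libraries as a line and bar. MAVS and SAMHD1 show no overlap between groups. In OAS1 and ISG20 bryostatin replicate 2 sits among the DMSO libraries.

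The order of the libraries differed from gene to gene within the set, and it is given here beside that of all genes tested. Bryostatin replicates 1 and 3 both lay below the other 4 libraries for 6 of the 28 tested genes (21.4%), IFIH1, MAVS, OAS1, OAS2, ISG20 and LGALS3BP, where 12.0% of all genes tested did so. They lay above the other 4 for 2 genes (7.14%), IFI16 and IRF3, against 12.4% of all genes. These divisions were chosen after the values were seen and are a description. Bryostatin replicate 1 was the highest library for 11 of the 28 genes and the lowest for 8, while bryostatin replicate 2 was the highest for 0 and the lowest for 8. Over all genes tested, replicate 1 was the highest for 26.3% and the lowest for 19.8%, and replicate 2 the highest for 10.3% and the lowest for 13.5%. For TLR10, MYD88, IRF5 and STAT2 DMSO replicates 1 and 2 lay outside the bryostatin range on the same side and DMSO replicate 3 did not. That held for 14.3% of the 28 genes and for 23.0% of all genes. The 22 genes under 0.1 FPKM summed to 0.980 FPKM in bryostatin replicate 1 and to between 0.398 and 0.509 FPKM in the other 5 libraries. These sums rest on few reads. In bryostatin replicate 1 IFI27 gave 0.203 FPKM on 16 reads, IFITM1 0.146 on 3 and cGAS (MB21D1) 0.127 on 10.

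**Figure D5:**
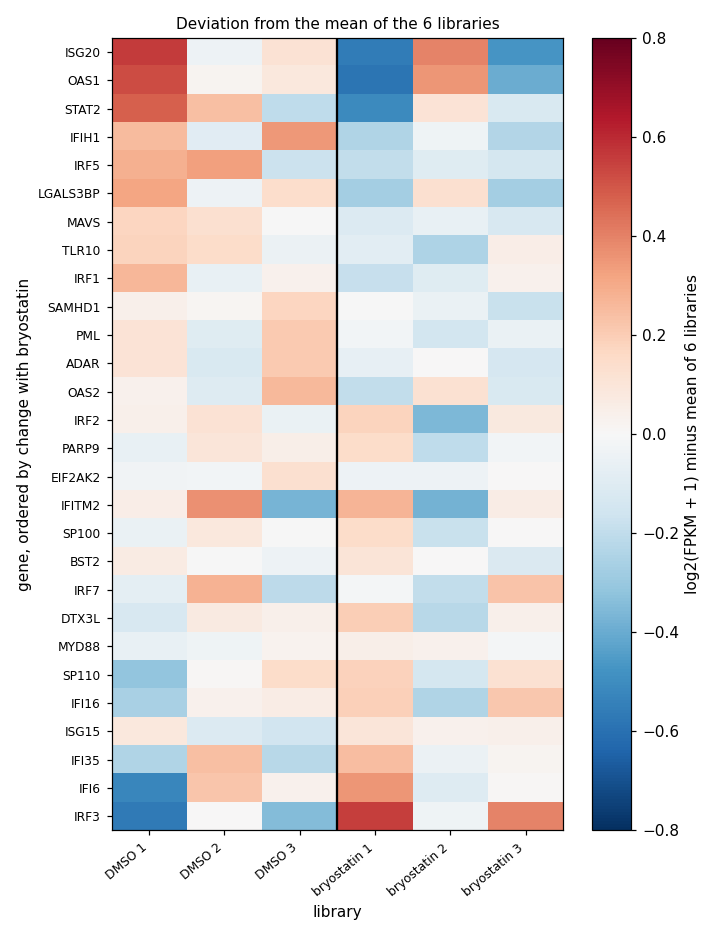
Deviation of log2(FPKM + 1) from the mean of the 6 libraries for the 28 tested genes, ordered by change under bryostatin, red for above and blue for below. ISG20 and OAS1, at the top, are blue in bryostatin replicates 1 and 3 and red in replicate 2, and IRF3, at the bottom, is red in replicates 1 and 3.

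The rest of the interferon pathway was followed through 79 further genes. Of the 21 interferon genes themselves, 19 had no read in any library, interferon beta (IFNB1) and all 13 listed interferon alpha genes among them. IFNL1 had 7 reads in all and IFNW1 had 1. Reads of the interferon alpha genes, which are near-identical paralogs, may be left unassigned. Receptors and kinases were expressed: IFNAR1 was at 7.53, 7.25 and 8.10 FPKM in DMSO and 7.04, 7.22 and 7.05 FPKM under bryostatin (log2 change -0.09, adjusted p = 0.541). Its groups did not overlap. IFNAR2, the other chain, was at 0.813 ± 0.185 and 0.804 ± 0.0901 FPKM, with 83.2% of its exonic bases shared with other annotated genes. JAK1 was at 23.0 ± 1.39 FPKM in DMSO and 20.7 ± 2.59 under bryostatin, and TYK2 at 25.4 ± 1.17 and 23.5 ± 1.58.

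Of the 79 genes, 40 were tested, 0 passed and 5 (12.5%) had an unadjusted p under 0.05, 1 higher and 4 lower, beside 17.6% of all genes. The groups did not overlap for 6 of the 40, 2 higher and 4 lower, beside 23.6% of all genes. The median log2 change was -0.08. RNASEH2C, a subunit of the RNase that removes RNA from RNA-DNA hybrids, was higher in each bryostatin library, at 8.07, 8.63 and 9.74 FPKM in DMSO and 13.0, 11.4 and 11.2 FPKM under bryostatin (log2 change 0.39 ± 0.10, SE; adjusted p = 0.216). It shares 28.2% of its exonic bases with KAT5 on the opposite strand, whose log2 change was 0.10 (adjusted p = 0.552). TRAF6, a ubiquitin ligase downstream of MYD88, was lower in each, at 2.49, 2.61 and 2.34 FPKM and 1.88, 2.09 and 1.73 FPKM (adjusted p = 0.242). IRF4, a lymphoid IRF, was lower in each as well, at 1.65, 1.03 and 1.27 FPKM and 0.688, 1.00 and 0.770 FPKM (adjusted p = 0.282). The gap between its nearest libraries, DMSO replicate 2 with 133 reads and bryostatin replicate 2 with 118, was small. NLRC5, the activator of MHC class I genes, was at 5.77 ± 1.48 FPKM in DMSO and 3.74 ± 0.990 under bryostatin (adjusted p = 0.271). CXCL10, an interferon-induced chemokine, was at 2.29 ± 0.596 and 1.36 ± 0.587 FPKM (adjusted p = 0.277), on a mean of 45.7 reads per library. IRF8, the other lymphoid IRF, was at 43.9 ± 4.45 and 39.8 ± 2.25 FPKM, and TBK1, the kinase that phosphorylates IRF3, at 9.48 ± 1.52 and 9.38 ± 0.421. TREX1, the exonuclease that clears cytosolic DNA, was listed at 0, but its exonic bases are shared in full with ATRIP, so that value says nothing of its level.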

How the data were processed

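Values are FPKM as deposited by the authors for 58735 genes in 6 libraries of polyadenylated RNA. Tools listed in the submitters' processing notes were HISAT2 (2.0.5), CASAVA, DESeq2 (1.20.0) and featureCounts (1.5.0-p3), with build hg38 and no role for any of them. Neither the strand setting nor the handling of overlapping genes is given in the sources used here. Gene coordinates and lengths of all 58735 genes equal those of GENCODE release 29, with length as merged exons. Multiplied by gene length, all values (100%) were whole multiples of a constant for that library, to 0.001 reads, and this gave reads and depth.

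Libraries were grouped by the treatment label. Genes averaging 1 FPKM or more were compared as log2(FPKM + 1) in limma 3.58.1 (R 4.3.3), with an intensity trend and Benjamini-Hochberg adjustment over all 11071 genes. No count model was used.

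The genes, roles and lists were chosen with earlier results of these data known. Library values are given for the 2 most abundant genes of each role and for tested genes with an unadjusted p under 0.05 or without overlap, other genes by group mean or reads. Of the pathway list, 7 genes (JAK1, TYK2, IFNAR1, IFNAR2, IRF4, IRF8, TBK1) and those with an unadjusted p under 0.05 are named, and some results are not reported here. IRF5 by library, the interferon genes, UBA7, UBE2L6, AIM2 and TREX1 are named outside that rule, chosen after their values were seen. Promoters come from RefSeq (GRCh38.p14), with 44 of the 60 genes matched. Alternatives covered pseudocount, filter, scaling, moderation, voom weights, the replicate block and each library left out.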

Additional observations from a re-analysis of the deposited data

How the results depend on the processing

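Across the alternatives no gene of the set passed an adjusted p of 0.05 in limma, except IRF5 without DMSO replicate 3. Leaving out 1 library at a time gave 0 to 267 genes passing in the whole table, 0 to 1 of the set, and 0 to 5 of the set at an unadjusted p under 0.05. The 267 and the 1 came without DMSO replicate 3, the 5 without bryostatin replicate 2, and 0 at an unadjusted p without DMSO replicate 1, bryostatin replicate 1 or bryostatin replicate 3. The share of all genes at that unadjusted p was 17.1% without bryostatin replicate 2 and 25.8% without DMSO replicate 3. It was 8.75%, 8.25% and 13.4% without DMSO replicate 1, bryostatin replicate 1 and bryostatin replicate 3. With 1 library left out, the median log2 change of the set ran from -0.12 to -0.028. A pseudocount of 0.1 and TPM scaling each let 1 gene pass, outside the set. The median was -0.0079 without a filter, over 58 genes, -0.12 with TPM scaling, -0.12 with quantile normalisation and -0.093 with voom weights. Over all genes tested the medians were -0.0041, -0.026, -0.0067 and 0.0033 in the same order. With the replicate number as a block, 0 genes passed and 1 gene of the set, IRF3, had an unadjusted p under 0.05, beside 10.8% of all genes. Same-numbered libraries deviated with correlations of -0.29, -0.32 and -0.11, and other-numbered libraries with correlations from -0.064 to 0.32. With 3 libraries per group these values cannot decide whether equal numbers mark a pair. DTX3L changed sign with TPM scaling (-0.034), quantile normalisation (-0.020) and voom weights (-0.0038). With single libraries left out DTX3L ran from -0.083 to 0.13, BST2 from -0.064 to 0.047, IFI6 from -0.040 to 0.33, IFITM2 from -0.23 to 0.15, SP100 from -0.10 to 0.066 and TBK1 from -0.077 to 0.11. IRF3 ran from 0.48 to 0.78, MAVS from -0.25 to -0.16 and IFIH1 from -0.47 to -0.25. The cause of these shifts was not tested. Without the filter, 0 of the 58 genes with reads passed, and many of the weak ones rest on few reads.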
